A study of Mus musculus with 1627 samples.

Results

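Immediate early-high muscle Tregs are the regulatory T cells (Tregs) of injured muscle in which the largest share of RNA molecules came from 10 rapidly induced genes: Fos, Fosb, Jun, Junb, Jund, Egr1, Ier2, Dusp1, Zfp36 and Btg2. Each cell was given a score, the percent of its unique molecular identifiers (UMIs, 1 per captured mRNA) in these genes, and the members were chosen by that score as the top 20% of each muscle library. That left 1094 of the 1368 muscle cells outside, and the members made up 16.8% of the 1627 cells in all. They were compared, gene by gene and without the 10 genes, with the bottom 20% of the same library, an equal number of cells called the low cells here.

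The cells came from male B6 Foxp3-Ires-Gfp mice aged 8 months, whose cells make green fluorescent protein (GFP) from the Foxp3 locus, 4 days after a muscle injury with cardiotoxin, a venom component that kills muscle fibres. DAPI- TCRb+ CD4+ GFP+ cells, meaning live CD4 T cells with the Foxp3 reporter, were sorted and profiled with inDrops, a droplet method that counts mRNA from its poly(A) end. Muscle gave 2 libraries, called library 1 and library 2, and the spleen of mice with the same injury gave 1. Spleens were dissociated mechanically and muscles with collagenase and dispase, so for any difference in level between the tissues the enzymes and the tissue cannot be told apart; there was no uninjured group.

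Immediate early genes are transcribed within minutes of a signal, from transcription factors already present in the cell, so they need no new protein synthesis. Fos, Fosb, Jun, Junb and Jund encode subunits of the dimeric transcription factor AP-1, and Egr1 encodes a zinc finger transcription factor. Dusp1 encodes a phosphatase that switches off MAP kinases, Zfp36 (tristetraprolin) a protein that marks AU-rich mRNAs for decay, Btg2 an antiproliferative cofactor of mRNA deadenylation, and Ier2 a nuclear protein. In T cells, these genes respond to antigen receptor and cytokine signals, and in many tissues also to enzymatic digestion into single cells.

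Promoters of 4 genes show the element most often named for cyclic AMP and calcium signals, the cyclic AMP response element (CRE, TGACGTCA), and its short form (short CRE, TGACG). They were chosen as 2 score genes (Fos, Dusp1) and 2 genes outside the score that were higher in the members (Nr4a1, Areg). Each sequence runs from 250 bases before to 50 after the gene's start, is taken from RefSeq on GRCm38.p6 and is written 5′ to 3′ along the gene; capitals mark CRE and short CRE matches on either strand.
Fos, chr12:85473640-85473939, plus strand: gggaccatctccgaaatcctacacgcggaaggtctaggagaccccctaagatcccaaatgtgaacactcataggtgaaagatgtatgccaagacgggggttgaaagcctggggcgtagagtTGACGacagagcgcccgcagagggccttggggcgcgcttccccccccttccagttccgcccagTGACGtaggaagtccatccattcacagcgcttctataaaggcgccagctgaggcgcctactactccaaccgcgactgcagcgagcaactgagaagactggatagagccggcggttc
Dusp1, chr17:26508423-26508722, minus strand: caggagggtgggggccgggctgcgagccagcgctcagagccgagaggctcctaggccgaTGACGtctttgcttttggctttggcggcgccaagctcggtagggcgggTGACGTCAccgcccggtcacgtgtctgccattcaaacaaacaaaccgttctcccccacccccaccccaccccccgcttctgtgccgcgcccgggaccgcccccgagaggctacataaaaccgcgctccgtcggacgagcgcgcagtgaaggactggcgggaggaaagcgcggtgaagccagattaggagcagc
Nr4a1, chr15:101266596-101266895, plus strand: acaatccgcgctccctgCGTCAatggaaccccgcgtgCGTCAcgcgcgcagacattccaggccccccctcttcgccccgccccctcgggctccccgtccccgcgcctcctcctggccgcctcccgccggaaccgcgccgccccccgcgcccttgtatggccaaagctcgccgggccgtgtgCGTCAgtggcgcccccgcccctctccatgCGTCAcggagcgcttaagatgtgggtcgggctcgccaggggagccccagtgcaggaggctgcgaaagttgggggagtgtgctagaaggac
Areg, chr5:91139349-91139648, plus strand: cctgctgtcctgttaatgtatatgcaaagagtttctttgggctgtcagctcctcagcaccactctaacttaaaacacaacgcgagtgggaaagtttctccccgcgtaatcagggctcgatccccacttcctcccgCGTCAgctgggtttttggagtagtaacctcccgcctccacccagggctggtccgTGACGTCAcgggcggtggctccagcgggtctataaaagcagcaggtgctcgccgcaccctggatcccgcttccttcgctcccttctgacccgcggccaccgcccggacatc
Dusp1 and Areg hold a full CRE before the start, seen as the palindrome in capitals, and each holds 1 further short CRE. Fos holds 2 short CREs and Nr4a1 holds 4.

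Of the 10 score genes, 8 had a promoter among those searched, and Egr1 and Ier2 had none. Promoters of chromosome 18, where Egr1 lies, were left out of every count here. A CRE stood in 2 of the 8 (25%), Dusp1 and Btg2, against 2.03% of all 27025 genes with a promoter of this length and 3.73% of the 1798 matched genes among all those compared. A short CRE, which every CRE also contains, stood in 5 of 8 (62.5%), against 23% of all genes with a promoter and 38.8% of those compared. Zfp36 held the CArG box of the serum response factor, and 0 of the 8 held the AP-1 motif TGANTCA, which 8.97% of all genes with a promoter hold. The 64 matched genes among those higher in the members held a CRE in 3 cases (4.69%) and a short CRE in 24 (37.5%), so their short CRE share lay near that of all genes compared. Both strands were searched, and a match describes the letters of the window alone.

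Across all cells, the 10 genes took 0.852% of UMIs in library 1 (exact binomial 95% interval 0.838 to 0.867), 0.849% in library 2 (0.837 to 0.863) and 0.487% in spleen (0.473 to 0.501). Intervals here and below are 95% intervals for counting error alone; the labels name no animal and cells are not replicates, so no p-value is given. Each muscle library spread continuously, from 3 cells at 0 to a highest cell at 5.41% in library 1 and 7.36% in library 2. No gap separates the members: in library 1 the last cell inside had a score of 1.396 and the first outside 1.395, and in library 2 the values were 1.242 and 1.239. The members are thus the upper end of a continuous score, and whether they hold a separate kind of cell was not tested.

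**Figure D1:**
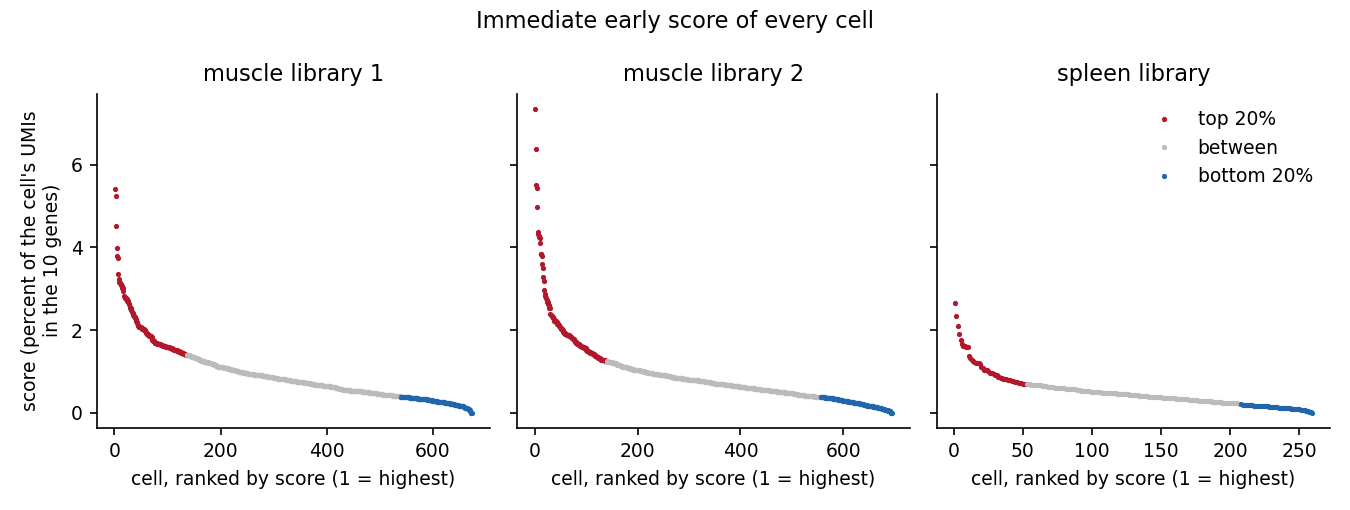
Score of every cell (vertical axis, percent of the cell's UMIs in the 10 genes) against its rank within its library (horizontal axis), for both muscle libraries and the spleen library; red points are the top 20% and blue points the bottom 20%. The curves bend without a break at the border of the members, at 1.396% and 1.242% in the first and the second muscle panel.

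The score chose the cells, so the levels of its own genes only describe them. The 10 genes took 2.05% of the UMIs of the members and 0.267% of those of the low cells in library 1, and 2.07% and 0.235% in library 2. Junb made up 32% and 32.6% of these UMIs in the members of the 2 libraries and Jund 16.4% and 14.1%. These AP-1 subunits were seen in nearly every member, Junb in 97% and 99.3% and Jund in 98.5% and 95.7%. Egr1, by contrast, was seen in 37% and 34.5% of members, Fos in 58.5% and 59.7%, Fosb in 67.4% and 70.5% and Jun in 25.9% and 27.3%. A member showed a median of 6 of the 10 genes in library 1 (range 3 to 9) and 5 in library 2 (2 to 10), against 2 of the 10 in the low cells of both.

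Each gene was then viewed with cells ranked by the other 9, so that it had no part in choosing them. All 10 were higher in the top 20% in both muscle libraries. Jund stood at 2.33-fold (2.06 to 2.64) in library 1 and 2.44-fold (2.17 to 2.75) in library 2. Egr1 had the widest ratio, at 831.0 against 28.5 CPM (UMIs scaled to a total of 1000000 without the score's own genes) in library 1 and 700.1 against 10.1 CPM in library 2, a difference of 29.1-fold (15.5 to 61.7) and 69.2-fold (26.7 to 256.2). Fos reached 10.9-fold (7.97 to 15.1) and 16.9-fold (12.6 to 23.3), and Fosb 9.86-fold (7.52 to 13.1) and 19.7-fold (14.1 to 28.2). Zfp36, at 5.76-fold and 8.2-fold, and Dusp1, at 5.25-fold and 4.06-fold, stood between these and Junb, at 2.53-fold and 2.84-fold. Btg2 stood at 2.2-fold (1.63 to 2.97) and 5.73-fold (4.32 to 7.73), intervals that do not meet. In spleen the same procedure gave ratios above 1 for all 10, from 1.62-fold for Jun, whose interval of 0.953 to 2.8 includes no difference, to 5.48-fold (2.24 to 16.1) for Fosb.

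**Figure D2:**
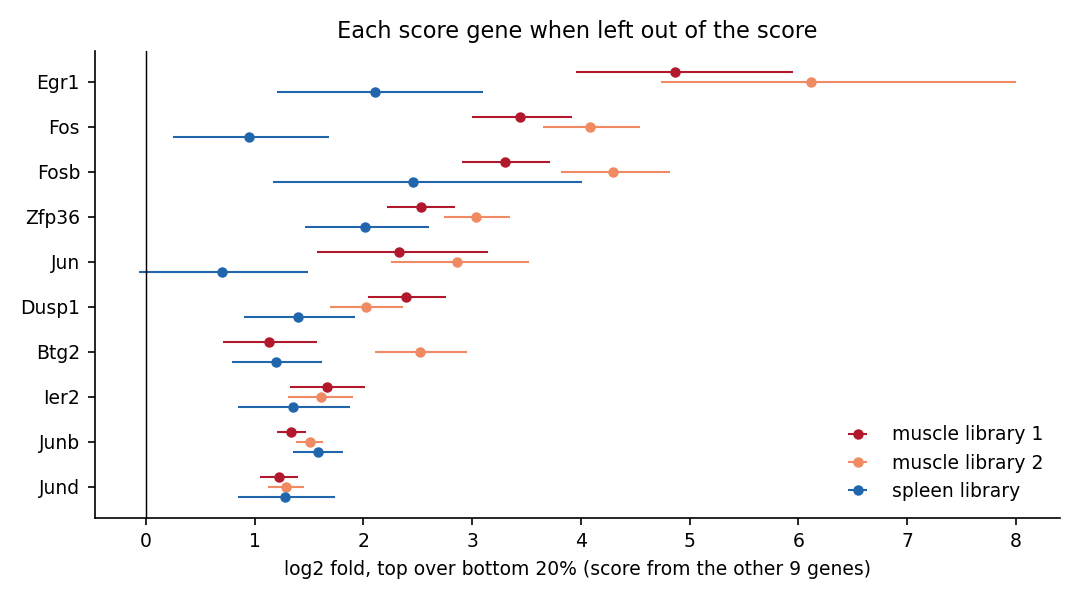
Log2 fold of each score gene between the top and bottom 20% when cells are ranked by the other 9 genes (horizontal axis); points are libraries and bars are exact 95% intervals for counting error. All points lie right of 0, and Egr1, Fos and Fosb lie farther right in both muscle libraries than Junb and Jund.

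The members matched the sort. Foxp3, which sets Treg identity, was measured at 647.8 against 543.8 CPM in library 1 and 721.1 against 515.4 CPM in library 2 (members against low cells here and below). Cd4 stood at 579.6 against 489.4 and 583.7 against 626.6 CPM, and Cd3e, part of the receptor complex of T cells, at 230.1 against 194.6 and 249.7 against 227.4 CPM. None of the 12 measured genes of T cell identity was 1.5-fold different in both libraries. Their median log2 fold of 0.05 lay near the -0.05 of all genes compared, with a sign that turned in cells thinned to one depth (-0.09) and in library 2 alone (-0.08).

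Transcripts of muscle fibres, fibroblasts and endothelial cells were few in both ends. The 10 muscle fibre genes summed to 17 against 34.3 and 53.1 against 37.9 CPM, and 8 and 7 of the 10 were at 0. The 8 fibroblast genes summed to 51.1 against 22.9 and 37.5 against 63.2 CPM, and the 7 endothelial genes to 25.6 against 68.7 and 37.5 against 27.8 CPM. The 17 myeloid genes reached higher sums, at 605.2 against 543.8 and 605.6 against 560.9 CPM, of which the cathepsin gene Ctss alone, which T cells also express, gave 443.2 against 417.9 and 486.98 against 378.98 CPM; 9 and 9 of the 17 were at 0. Mgl2, a lectin gene of macrophages and dendritic cells that is not on the list and was named after its values were seen, was among the higher genes described below, at 89.5 against 42.9 and 168.6 against 75.8 CPM. CD8 and NK genes summed to 413.4 against 211.8 and 268.5 against 305.7 CPM, and B cell genes to 52 against 58 and 58 against 99 UMIs, or 221.6 and 181.1 CPM in the members. Erythroid and platelet genes differed in opposite ways, at 102.3 against 11.4 CPM in library 1 and 6.24 against 141.5 CPM in library 2. The part of other cells in the differences below was not tested.

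Depth differed between the ends. The median member held 77.4% as many UMIs as the median low cell in library 1 and 90.1% in library 2. At 1000 UMIs per cell, the median member showed 96.1% and 96.7% as many genes as the median low cell. The median percent of reads mapped was 79.8 against 81.3 and 79.4 against 80.9, and the 5 nuclear-retained RNAs summed to 5599.9 against 3237 and 3605 against 3512 CPM. Depth was addressed below only by thinned cells and by ranking cells within bins of similar UMI total. The part of depth and RNA quality in the differences was not tested further. Reads per UMI were alike, at medians of 24.7 and 24.3 in library 1 and 45.4 and 44.6 in library 2. The muscle libraries shared 11 cell barcodes, of which 0 were shared by their members.

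Outside the score, 2328 genes had at least 100 UMIs over the 4 groups of cells, and of these 79 (3.39%) were at least 1.5-fold higher in the members in both muscle libraries and 80 (3.44%) at least 1.5-fold lower; this rule of size is no test. These are called the higher and the lower genes here. The higher genes included other rapidly induced regulators, the repair factor Areg and the surface receptor Cd69, and the lower genes included Stmn1, Myc, Cbx3 and Ran. With every cell thinned to 1000 UMIs, 33 of the 45 higher genes that could still be compared kept their call, against 0 of 9 lower genes, of which 9 kept their direction. With cells ranked within 5 bins of similar UMI total, 54 of 78 higher genes and 45 of 80 lower genes kept their call. All 78 and all 80 kept their direction in the mean of both libraries. At 2-fold the rule left 29 higher and 12 lower genes. A gene's log2 fold had the same sign in both libraries for 1394 of the 2328 genes.

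**Figure D3:**
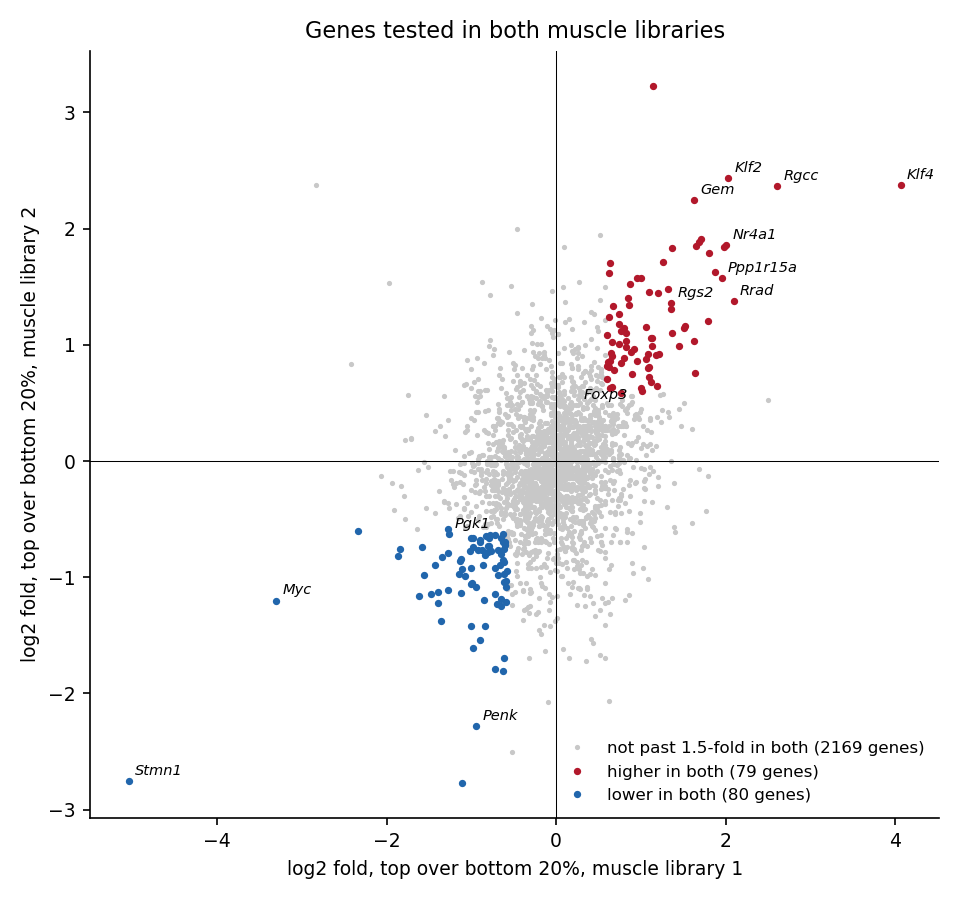
Log2 fold of the top over the bottom 20% in muscle library 1 (horizontal axis) and muscle library 2 (vertical axis) for each of 2328 genes; red genes are at least 1.5-fold higher in both (79), blue genes at least 1.5-fold lower in both (80). Klf2, Rgcc, Gem and Klf4 lie at the upper right, and Stmn1, Myc and Penk, with few or unevenly spread UMIs, at the lower left.

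Several of the higher genes encode transcription factors of the same rapid response. Nr4a1, an orphan nuclear receptor induced by T cell receptor signals, stood at 3426 against 852.9 CPM in library 1 and 2878 against 793.3 CPM in library 2, or 4.02-fold (3.51 to 4.6) and 3.63-fold (3.19 to 4.14). Klf2, a zinc finger factor that keeps lymphocytes circulating, stood at 409.1 against 100.2 and 546.3 against 101.1 CPM, or 4.08-fold (2.75 to 6.2) and 5.41-fold (3.82 to 7.82). Klf6, of the same family, stood at 980.2 against 300.5 and 808.5 against 214.8 CPM, or 3.26-fold (2.58 to 4.15) and 3.76-fold (2.94 to 4.87). For each of these genes both groups of members lay above both groups of low cells. Klf4 stood at 383.6 against 22.9 CPM in library 1, on 90 against 8 UMIs, and at 131.1 against 25.3 CPM in library 2.

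Others act on signalling and growth. Rgcc, a regulator of the cell cycle, stood at 383.6 against 63 CPM in library 1 and 377.7 against 73.3 CPM in library 2, or 6.09-fold (3.79 to 10.2) and 5.16-fold (3.41 to 8.02); 1 member held 24 of the 90 UMIs in library 1. Ppp1r15a (GADD34), which directs protein phosphatase 1 to the translation factor eIF2α, stood at 1053 against 271.9 and 677.4 against 227.4 CPM, or 3.87-fold (3.04 to 4.96) and 2.98-fold (2.32 to 3.85). The small GTPases Gem and Rrad belong to one family. The ratio of Gem was 3.08-fold (1.95 to 4.98) and 4.74-fold (3.17 to 7.29), and that of Rrad 4.27-fold (3.17 to 5.82) and 2.6-fold (1.97 to 3.46). Rgs2, which dampens G protein signals, was 2.56-fold and 2.56-fold higher, and Csrnp1, a nuclear protein, had ratios of 3.15-fold (2.46 to 4.04) and 3.6-fold (2.92 to 4.48). Csrnp1 overlaps Cx3cr1 on its own strand and Ppp1r15a overlaps Tulp2 on the other, and the strand setting of the counting is not known from the sources used here.

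The higher genes also held products that act at the cell surface or nuclear envelope. Cd69, an early activation antigen that retains lymphocytes in tissue, stood at 1078 against 294.8 CPM in library 1 and 852.2 against 275.4 CPM in library 2, or 3.66-fold (2.9 to 4.65) and 3.09-fold (2.47 to 3.9). Areg encodes amphiregulin, a ligand of the epidermal growth factor receptor that Tregs release in tissue repair. It stood at 630.7 against 180.3 CPM in library 1 and 412.1 against 118.7 CPM in library 2, or 3.5-fold (2.59 to 4.78) and 3.47-fold (2.47 to 4.95). Lmna, which encodes lamins A and C, stood at 1168 against 363.5 and 1252 against 338.6 CPM, or 3.21-fold (2.59 to 4) and 3.7-fold (3.03 to 4.53). In each of the 3, the members of either library lay above the low cells of both.

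The shape over 5 equal groups of cells, ordered by score, differed between these genes. Nr4a1 rose at each step in library 1, from 852.9 CPM in the lowest group through 1161, 1705 and 2122 to 3426 CPM in the highest. Lmna stood at 363.5, 475.6, 478.8 and 518.5 CPM in the lower 4 groups of library 1 and at 1168 CPM in the highest. Areg stood at 180.3 CPM in the lowest group of library 1, at 416.2, 427.1 and 317.7 CPM in the middle 3 and at 630.7 CPM in the highest. In library 2, Areg stood at 118.7 CPM in the lowest group and at 310.6, 364.3, 373.7 and 412.1 CPM in the other 4, so its low level set the lowest group apart. Of the 12 most different higher genes, 2 rose at every step in both libraries, 6 in 1 library and 4 in neither.

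**Figure D4:**
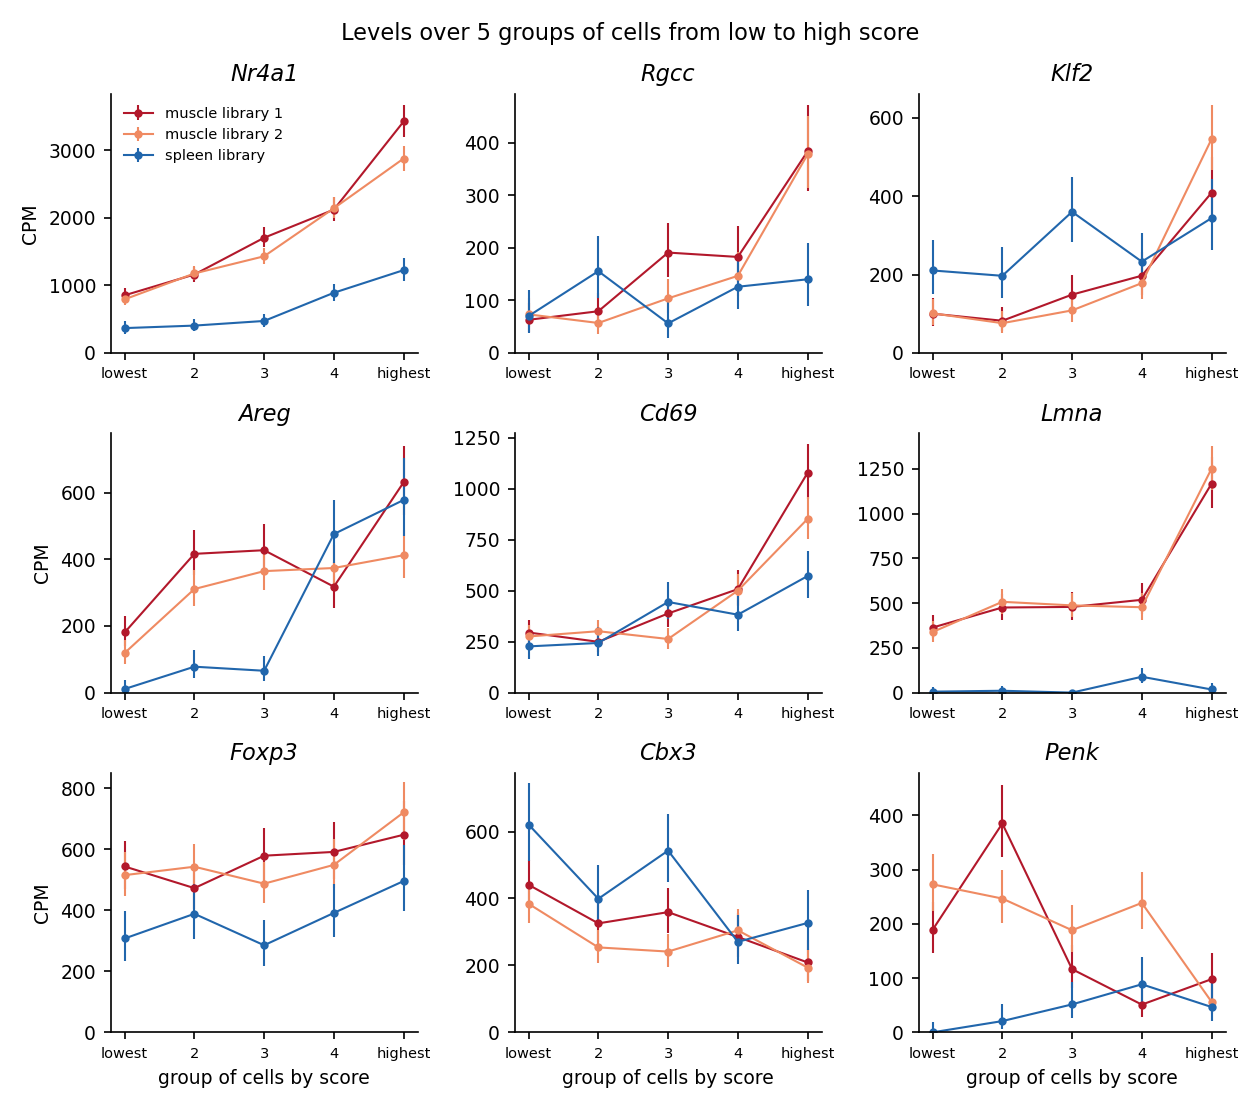
Level of 9 genes (vertical axes, CPM without the score genes) over 5 equal groups of cells from lowest to highest score (horizontal axes), by library; bars are exact Poisson 95% intervals. Nr4a1 climbs in steps, Lmna, Klf2 and Rgcc climb mostly in the highest group of muscle, Areg in muscle is low mainly in the lowest group, and Foxp3 in muscle changes less than these.

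Among genes of the same rapid program that were not in the score, 12 of the 16 measured were higher and 2 lower. The list was chosen for the same program as the score, with earlier results of these data known. Its count therefore only describes the members, and some of its genes are counted again in lists below. The list's median log2 fold was 1.57 against -0.05 for all genes. All genes compared gave 3.39% higher and 3.44% lower, shares that stand beside every list count below. The higher ones were Cd69, Csrnp1, Gadd45b, Ier5, Klf2, Klf4, Klf6, Nr4a1, Phlda1, Pim1, Ppp1r15a and Sertad1. The lower ones were Srf and Myc. Myc, which drives growth, stood at 0 against 125.9 and 59.3 against 136.4 CPM, and its call held in 4 of 10 alternatives. Totals without ribosomal protein genes, among these alternatives, cannot undo a lower call. Of 4 other AP-1 and ATF factors, 2 were higher: Fosl2, with ratios of 2.58-fold (1.97 to 3.4) and 2.15-fold (1.65 to 2.82), and Crem, a cyclic AMP responsive factor, at 975.9 against 449.4 and 774.2 against 482.6 CPM. With equal weight per cell 1 of the 4 was higher, in thinned cells 0 of 3, and with cells ranked by Fos, Fosb, Jun and Egr1 alone 0 of 4.

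Several negative regulators were higher. Of 8 feedback inhibitors of signalling 5 were higher and 0 lower (median 1.01): the MAP kinase phosphatases Dusp2 and Dusp10, the cytokine signalling inhibitors Socs1 and Socs3, and Rgs2. The ratio of Dusp2 was 1.55-fold (1.16 to 2.08) and 3.27-fold (2.53 to 4.25). Of 6 further genes of mRNA decay and growth arrest 2 were higher and 0 lower (median 0.59), Zfp36l2, a relative of Zfp36, at 886.4 against 389.3 and 586.9 against 373.9 CPM, and Tob2, a relative of Btg2, at 451.7 against 226.1 and 371.5 against 240.02 CPM. Of 12 NF-kB genes 4 were higher and 0 lower (median 0.42), all of them regulators of that pathway. Nfkbia (IκBα) stood at 4462 against 2295 and 4211 against 2312 CPM and Tnfaip3 (A20) at 2101 against 984.6 and 2157 against 785.8 CPM, and Nfkbid and Nfkbiz, which encode nuclear IκB proteins, completed the 4. In thinned cells the counts of these 3 lists were 2 of 5, 1 of 5 and 4 of 6, and with cells ranked by Fos, Fosb, Jun and Egr1 alone 1 of 8, 0 of 6 and 0 of 10.

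Genes of the dissociation response, known from tissues digested with enzymes, were in part the same genes: 8 of 24 were higher and 1 lower (median 0.47). The higher ones included Klf2, Klf4, Klf6, Nfkbia, Nfkbiz, Ppp1r15a and Socs3, and Myc was lower. Heat shock genes, often raised in the same setting, were not among them: 0 of 9 were higher and 1, Hsph1, was lower, and their median of -0.12 turned to 0.21 in thinned cells, 0.24 with equal weight per cell and 0.29 in library 2 alone, where 3 of 6 were higher. Dnajb1 stood at 166.2 against 154.6 CPM in library 1 and 312.2 against 136.4 CPM in library 2. The part of dissociation in the higher levels was not tested.

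Of 6 glucocorticoid and stress genes 2 were higher and 0 lower. Tsc22d3 (GILZ), which glucocorticoids induce, stood at 426.2 against 123.1 and 396.4 against 171.8 CPM. Cxcr4, the receptor for the chemokine CXCL12, stood at 630.7 against 357.8 and 558.8 against 272.9 CPM. Of 6 survival and death genes 1 was higher, against 3.39% of all genes compared. It was Pmaip1 (Noxa), at 132.1 against 60.1 and 115.5 against 55.6 CPM.

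Of 13 T cell receptor target genes measured, Nr4a1 was higher and Nfatc1 and Penk lower. The shares over all genes compared were 3.39% higher and 3.44% lower. Cd69, also higher, was counted with the rapid program and not in this list. The list's median of -0.03 turned sign in each library alone (0.21 and 0.10). It was 0.00 with TMM and 0.00 with DESeq2 factors. Irf4, a factor that T cell receptor signals raise, stood at 196.04 against 140.2 CPM in library 1 and 196.7 against 88.4 CPM in library 2. Cd83 stood at 319.6 against 134.5 and 243.5 against 179.4 CPM. Neither passed 1.5-fold in both libraries.

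Of 9 Treg identity genes 1 was higher, against 3.39% of all genes compared, and in thinned cells 0 of 9. That gene was Nrp1, a receptor for semaphorins, at 379.3 against 177.5 and 259.1 against 156.6 CPM. Ctla4 stood at 3349.7 against 2281 and 2357 against 1842 CPM and did not pass the rule. Of 15 tissue Treg genes 1 was lower and 3 were higher, Areg, Lmna and Il1rl1, which encodes the interleukin 33 receptor and stood at 217.3 against 140.2 and 224.8 against 123.8 CPM. None of 7 suppressive molecules passed, with Il10 at 174.7 against 163.1 and 149.8 against 58.1 CPM. None of 13 effector and memory genes passed either. Klrg1, a marker of terminally differentiated Tregs, stood at 626.5 against 518.05 and 1127 against 727.6 CPM, and Gzmb, a cytotoxic protease, at 2195 against 1852 and 1842 against 2153 CPM.

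Penk, which encodes the precursor of enkephalin peptides, was the one tissue Treg gene that was lower, at 98 against 188.9 CPM in library 1 and 56.2 against 272.9 CPM in library 2. That call rested on very few cells. In library 1, 60 of the 66 UMIs in the low cells came from 1 cell, and 6 members and 6 low cells held a UMI. In library 2, 5 members and 8 low cells held the UMIs.

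Among the lower genes, Cbx3, a heterochromatin protein, stood at 208.8 against 440.8 CPM in library 1 and 193.5 against 384.04 CPM in library 2. Ran, a GTPase of nuclear transport, was lower by 2.02-fold (1.54 to 2.69) and 1.71-fold (1.29 to 2.28), and H2afz, a histone variant, stood at 562.5 against 930.2 and 480.7 against 909.6 CPM. Other genes lowest in the members were the mitochondrial Atp5k, Ndufb7 and Tomm22, the glycolytic enzyme gene Pgk1, the apoptosis protease gene Casp8, the mRNA-binding protein gene Elavl1, the NEDD8-conjugating enzyme gene Ube2m, and Erh, whose mean log2 fold turned to 0.11 in thinned cells. The direction was the same in both libraries, but 11 of the 12 did not fall step by step in either. Of 10 alternatives, the call held in 4 for Pgk1 and Ube2m, 5 for Ndufb7 and H2afz and 6 for Tomm22 and Elavl1. It held in 7 for Erh and Ran and in 8 for Cbx3, Atp5k and Casp8. Part of these counts was fixed in advance. A call made in both libraries cannot be lost in either alone, if the gene had enough UMIs to be compared there. All 25 lower genes compared in library 2 alone and all 15 in library 1 alone kept their call. Leaving ribosomal protein genes out of the totals lowered every ratio, and 80 of 80 lower genes kept their call. The mean log2 fold of Ndufb7 turned to 0.16 with cells ranked by Fos, Fosb, Jun and Egr1 alone. Over lists, 1 of 18 oxidative phosphorylation genes (Ndufs6) and 1 of 11 glycolysis genes were lower and 0 higher, at medians of -0.42 and -0.31. With 3.44% lower over all genes compared, 1 gene in a list of this size is no result about the list. Of 81 ribosomal protein genes 0 passed (median -0.14). In thinned cells the oxidative phosphorylation median was -0.11, with 0 of 13 genes lower.

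Some cell cycle genes were lower in the members. Stmn1, a microtubule regulator of dividing cells, had 1 UMI against 49 in library 1 and 6 against 50 in library 2. Of 5 measured genes of the G2 and M phases 2 were lower, Stmn1 and Cenpa, a centromeric histone, and 0 higher. The call of Cenpa held in 1 of 10 alternatives, among which totals without ribosomal protein genes cannot undo a lower call. In thinned cells the 1 gene of the list still measured was not lower. Of 4 S phase genes 1 was lower, against 3.44% of all genes compared, and 0 higher. It was the replication helicase subunit Mcm6, at 51.1 against 157.4 and 81.2 against 181.9 CPM. Pcna, the sliding clamp of replication, stood at 302.6 against 377.8 and 305.9 against 394.1 CPM, and Hmgb2, a chromatin protein of dividing cells, at 370.8 against 369.2 and 206.03 against 358.8 CPM; neither passed the rule. The members thus still held cycle transcripts, with sums of 771.4 against 1325 and 821.0 against 1230.4 CPM over the S phase list. The low cells also held most of the deepest cells, with 7 and 5 cells above 3 times their library's median UMI count against 0 and 0 among the members. With cells ranked within 5 bins of similar UMI total, 1 of 4 S phase genes and 1 of 5 G2 and M phase genes were lower. The list medians were then -0.41 and -0.54, against -0.38 and -0.40 in the main comparison. The part of depth in the cycling difference was not tested further.

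The top cells by different parts of the score were only in part the same. The score was divided into Fos, Fosb, Jun and Egr1 (the 4-gene part) and Junb, Jund, Ier2, Dusp1, Zfp36 and Btg2 (the 6-gene part). Of the members, 66.7% in library 1 and 66.2% in library 2 were also in the top 20% by the 4-gene part, and 80% and 84.2% by the 6-gene part. Each part belongs to the full score, so some of this overlap is built in. The top 20% by the 4-gene part and by the 6-gene part shared 63 cells in library 1 (46.7% of either) and 70 in library 2 (50.4%). Unrelated rankings would share 20% on average. Ranking by the 4-gene part gave 43 higher (1.92%) and 58 lower genes (2.59%) in both libraries, and ranking by the 6-gene part 95 (4.14%) and 72 (3.14%). No UMI of the 4 genes was seen in 44.7% of the cells of library 1 and 46.8% of library 2, so the bottom 20% by those genes was taken among tied cells. The part of such sparse counts in the limited overlap was not tested.

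Areg, Fosl2 and Il1rl1 were higher under the rule of size by the 6-gene part and not by the 4-gene part; no test was made of the difference between these rankings. By the 6-gene part, Areg stood at 644.8 against 151.4 CPM in library 1 and 484.6 against 122.7 CPM in library 2, or 4.26-fold (3.08 to 5.98) and 3.95-fold (2.84 to 5.57). By the 4-gene part it stood at 378.2 against 332.6 and 196.7 against 260.3 CPM, or 1.14-fold (0.848 to 1.53) and 0.756-fold (0.544 to 1.04). Fosl2 stood at 2.53-fold and 2.62-fold by the 6-gene part and at 1.1-fold (0.848 to 1.43) and 0.68-fold (0.531 to 0.868) by the 4-gene part, and Il1rl1 at 2.22-fold and 1.91-fold against 1.06-fold and 0.866-fold. Rgcc, Klf2, Klf6, Lmna and Cd69 were higher by both parts, Cd69 by 2.76-fold and 2.15-fold with the 6 genes and by 3.88-fold and 4.44-fold with the 4.

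**Figure D5:**
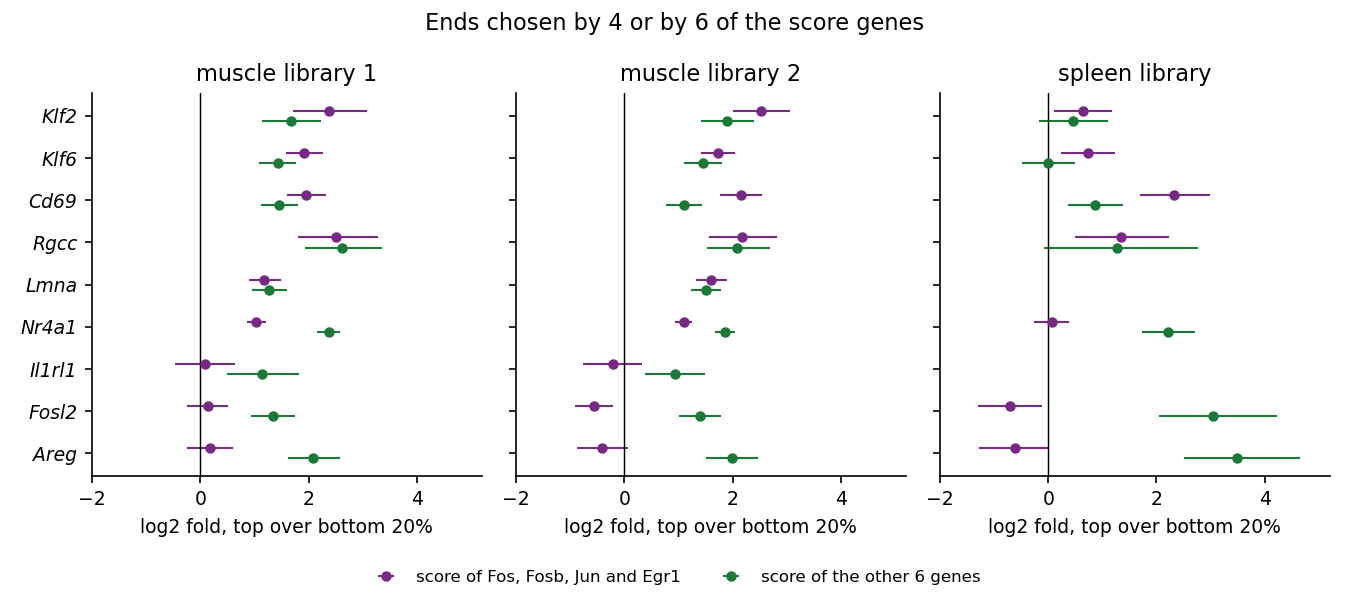
Log2 fold of 9 genes between the top and bottom 20% of each library when cells are ranked by 4 (purple) or by 6 (green) of the score genes; bars are exact 95% intervals for counting error, and a gene with under 20 UMIs in a comparison is not drawn. For Areg, Fosl2 and Il1rl1 the purple points lie near or below 0 and the green points near 1 or above in both muscle libraries, while Klf2, Klf6, Cd69, Rgcc and Lmna lie right of 0 for both.

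After this had been seen, cells in the top 20% by one part alone were set against each other, 72 against 72 cells in library 1 and 69 against 69 in library 2, at a minimum of 50 UMIs. Of 2192 genes, 4.7% were at least 1.5-fold higher in the cells high by the 6 genes alone in both libraries and 82 (3.74%) in the cells high by the 4 genes alone. Areg favoured the former by 2.81-fold (1.91 to 4.2) and 4.11-fold (2.77 to 6.24), and by 5.17-fold (2.91 to 9.88) in spleen, where 33 cells faced 33. Klf6 favoured the cells high by the 4 genes alone by 2.6-fold (1.87 to 3.68) and 2.96-fold (2.15 to 4.14), and by 1.42-fold (0.915 to 2.22) in spleen. For Rgcc the ratio of the former to the latter was 0.928-fold (0.552 to 1.54) and 1.12-fold (0.724 to 1.74) in muscle, with 1 inside both intervals. In spleen the ratio of Rgcc was 0.213-fold (0.0788 to 0.497), on 7 against 29 UMIs. The cells high by the 4 genes alone were the deeper ones, with medians of 1971.5 against 1706.5 UMIs and 2492 against 2320.0 UMIs; the part of depth in these ratios was not tested.

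Among the members themselves, Rgcc was lower in those with Areg than in those without. The 44 and 42 members with an Areg UMI had Rgcc at 120.7 and 207.8 CPM, on 10 and 22 UMIs, and the 91 and 97 members without one at 527.1 and 461.6 CPM, on 80 and 99 UMIs. In library 1, 1 member without an Areg UMI held 24 of those 80 UMIs. Members were also divided by a UMI of Il1rl1, Klrg1, Gzmb or Penk, and those comparisons are not reported here. Nr4a1 was at 4103 and 3023 CPM in the members with Areg and at 3057 and 2807 CPM in those without. The members with an Areg UMI had lower scores, at medians of 1.68 against 1.92 and 1.67 against 1.87, and more UMIs, at 1813.5 against 1603 and 2453 against 2034, and the part of score and depth in the Rgcc difference was not tested. A cell without a UMI may still hold the mRNA, and a background share from a cell type that lacks Areg was not measured here. Rgcc was 2.67-fold (1.66 to 4.41) in the members above the median score over those below it in library 1 and 1.17-fold (0.806 to 1.7) in library 2. The member with 24 of the 90 Rgcc UMIs bears on the ratio of library 1. Among the members, those above the median score had more Klf2 than those below it, by 2.05-fold (1.32 to 3.24) in library 1 and 2.93-fold (2.08 to 4.19) in library 2. Areg stood at 1.08-fold (0.774 to 1.52) and 0.557-fold (0.38 to 0.808) in the same comparison.

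Spleen Tregs, which the rule did not use, shared part of the muscle set at the top of their own score, among the genes measured there. The top 20% of spleen, 52 cells, had a lower score than the muscle members, with 1.06% of UMIs in the 10 genes against 0.125% in its bottom 20%. Of the genes with at least 100 UMIs over both ends, 19.2% were at least 1.5-fold higher and 58 (10.6%) at least 1.5-fold lower in this 1 library. Only 28 of the 79 muscle higher genes had that many UMIs in spleen, and the others were not compared. Spleen log2 folds of the others lay on both sides of 0, such as -1.43 for Anxa5 and 2.68 for Fosl2. Of the 28 muscle higher genes measured there, 20 (71.4%) were higher, 0 lower and 8 neither, against 18.9% higher among the genes measured in both tissues, and their median log2 fold was 1.0 against -0.07. In cells thinned to 1000 UMIs 11 genes were higher and 13 lower over all genes, since few had enough UMIs. Of 6 muscle lower genes measured in spleen 1 was lower, 2 higher and 3 neither.

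Nr4a1 stood at 1225.5 against 367.1 CPM in the ends of spleen, Ppp1r15a at 1827 against 383.3 CPM and Cd69 at 571.9 against 226.7 CPM. Areg had 99 UMIs in 14 spleen cells of the top 20% and 2 UMIs in the bottom 20%, or 577.7 against 10.8 CPM and a ratio of 53.5-fold (14.4 to 448.04). That level was within the range of the muscle members. Klf6, at 443.5 against 372.5 CPM, Rgs2, at 1027 against 879.9 CPM, and Klf4, with 19 UMIs in the top and 19 in the bottom 20%, were higher in the muscle members and not past 1.5-fold in spleen. Lmna was nearly unseen in spleen, with 3 UMIs against 1. Whether any of these ratios differs between muscle and spleen was not tested.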

How the data were processed

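The deposited table holds the authors' raw UMI counts for 23725 genes in 1627 cells. The mm10 build, TopHat2 and SAMtools come from the submitters' processing notes; which annotation, strand setting, UMI collapsing or cell filter was used is not given in the sources used here. Cells were assigned to the 3 libraries by their labels, and all were kept (756 to 9628 UMIs each); library totals were 1533277, 1916496 and 982570 UMIs. Doublets were not called, and the 12 and 7 muscle cells above 3 times their library's median UMI count stayed in.

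UMIs of the top and the bottom 20% of cells were summed and scaled to CPM of the total without the 10 score genes. A gene was called higher or lower at 1.5-fold or more in the same direction in both muscle libraries, with at least 100 UMIs over the 4 sums. A sum of 0 was set to a floor of 3 counts for a ratio. Ratios carry exact conditional binomial (Clopper-Pearson) 95% intervals and levels exact Poisson intervals; UMIs cluster in cells, which these leave out. Labels name no animal, so no test was made. The code for the rule was checked on simulated counts. Thinned sums used cells thinned without replacement to 1000 UMIs with seed 1, which left out 33 shallower muscle cells.

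The members and the 31 gene lists were chosen with earlier results of these data known. Named are the 12 higher and 12 lower genes with the largest smaller log2 fold over both muscle libraries and at least 200 UMIs, leaving out ribosomal, predicted and receptor segment genes. Added to these are up to 4 genes of any list that had at least 3 measured, the score genes and 12 check genes (Foxp3, Cd4, Cd3e, Il2ra, Il1rl1, Klrg1, Gzmb, Areg, Penk, Ccr8, Cd83 and Mki67). Genes listed by name alone, with no value, belong to a list's count. Some genes in these counts are not reported here by name. Promoters were matched to RefSeq by symbol, without those of chromosome 18, and overlaps are from GENCODE M21.

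Alternatives covered scaling (totals that leave out ribosomal protein genes, DESeq2 size factors, edgeR TMM factors), UMI minimum, fold, equal weight per cell, depth, the share of cells taken, the parts of the score and each muscle library alone; edgeR and DESeq2 supplied scaling factors only. Software was R 4.3.3 with DESeq2 1.42.0 and edgeR 4.0.16, and Python 3.11.15 with matplotlib 3.10.9, scipy 1.17.1, pandas 2.3.3 and numpy 2.4.6.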

Additional observations from a re-analysis of the deposited data

Results flagged for a closer look

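Penk, Erh and Elavl1 were lower in the members of both muscle libraries and higher in the top 20% of spleen, which drew attention to them as opposite directions in the 2 tissues; the difference was not tested. The spleen log2 fold of Penk was 1.53, on 8 UMIs against 0 with the floor of 3 counts, and 7 of the 8 came from 1 cell. The spleen log2 fold of Erh was 0.84, on 43 against 26 UMIs, and that of Elavl1 1.16, on 33 against 16 UMIs.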

How the results depend on the processing

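Against 3.39% of genes higher (79) and 3.44% lower (80), a minimum of 50 UMIs gave 4.36% higher and 5.52% lower among 4109 genes, a minimum of 300 UMIs 5.04% (36) and 1.12% (8), a 2-fold limit 1.25% (29) and 0.515% (12), and thinned cells 4.48% (40) and 1.01% (9). The top and bottom 10% gave 6.36% (67) higher and 4.65% (49) lower genes and the score of Fos, Fosb, Jun and Egr1 1.92% (43) higher genes. Each muscle library alone gave 8.0% to 9.20% higher and 8.49% to 9.10% lower genes, since the rule then asks for 1 library and not both. The share of higher among called genes, 49.7%, became 81.8% at 300 UMIs, 70.7% at 2-fold and 81.6% in thinned cells. In spleen, 50 UMIs gave 23.7% higher and 13.7% lower and thinned cells 7.43% (11) and 8.78% (13). The mean percent per cell in the 10 genes was 0.948 and 0.920 in the muscle libraries and 0.508 in spleen. With the score of Fos, Fosb, Jun and Egr1 the mean log2 fold turned to -0.11 for Areg, -0.21 for Fosl2, -0.060 for Il1rl1 and 0.16 for Ndufb7, and with thinned cells to 0.11 for Erh; the cause was not tested. Of the mean log2 folds of named genes under the alternatives, 78.97% moved by no more than the SD between both libraries and 20.5% by more. Another 5 turned, but a turn was counted only for genes called higher or lower. Genes not called also changed sign, such as Irf4 (0.82, lowest -0.098) and Batf (-0.30, highest 0.41). By arithmetic, a muscle library taken alone cannot move by more than that SD, so these alternatives raise the 78.97%. No paired analysis was possible because no test across samples was made; each ratio is taken within 1 library. At this depth, genes under 100 UMIs in the 4 groups of cells were not compared.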
